A study of Mus musculus with 29 samples.

Results

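Mid recovery of the mouse heart, at weeks 11 and 13 of the study, was compared with early recovery, at weeks 7 and 9. The 9 libraries were chosen by week alone, 2 of week 7 and 2 of week 9 on the early side and 3 of week 11 and 2 of week 13 on the mid side, out of 24 libraries used. The recovery and HF week 5 mice were C57BL6 males (C57BL/6J in the methods), 3 months old at the start, that drank water with 0.3 mg/ml L-NAME, which blocks nitric oxide synthesis, and 1% NaCl for 5 weeks, and that after the first week carried a 28-day osmotic pump with angiotensin II at 0.7 mg/kg per day. At week 5 they were in heart failure (HF), the agents ended, and the hearts recovered without treatment. The labels count weeks from that point, and weeks 7, 9, 11 and 13 here are their recovery weeks 2, 4, 6 and 8. Recovery week 9 had 2 columns for 3 labelled samples. HF week 5 (3 libraries), Recovery week 19 (5) and untreated Control week 19 (5) were set beside the comparison, and HF week 3 (2 libraries), taken during the induction, enters the model only for its spread. There were no controls of weeks 7 to 13, so that time since withdrawal and age cannot be told apart. The tissue is labelled as whole heart or whole ventricle, while the methods name the frozen apical portion, and atrial markers summed to 379.5 to 2437 FPKM in early and 361.9 to 1436 in mid recovery.

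Values are FPKM, fragments per length of the transcript and per depth of the library. Tests used log2(FPKM + 0.5) and covered 12,759 genes, those whose mean reached 0.5 FPKM. The added 0.5 makes the fold changes of weakly expressed genes smaller than those of the FPKM. All 24 libraries entered one limma model with a mean for each group, and p-values are two-sided and measure the spread between libraries, which the labels name as separate samples without naming the animals. The absolute depth is unknown. Relative depth, read from the steps of low values, was 1 to 1.2 in the early libraries and 0.783 to 0.881 in the mid libraries, so that the mid libraries were shallower, and the part of this in the differences was not tested. Cardiomyocyte genes were abundant in all 9 libraries: Myh6, the alpha myosin heavy chain, took 15.5 ± 1.08% of the FPKM in early recovery (SD, n = 4) and 19.9 ± 2.83% in mid recovery (SD, n = 5).

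After an injury or an overload of the heart, resident and incoming macrophages clear debris, present antigen on MHC class II and exchange signals with fibroblasts, which make and remodel the collagen matrix. The circadian clock of heart cells is a loop in which Arntl (Bmal1) and Clock switch on the Per and Cry repressors and output genes such as Dbp, Tef and Hlf, and its transcripts rise and fall over each day.

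Genes higher in mid than in early recovery included markers of macrophages, of antigen presentation, of complement and of the collagen matrix, and genes that were lower included Per, Cry and Tef genes of the clock. Of the 12,759 genes, 674 were higher in mid recovery at an unadjusted p under 0.05 in limma, 5.28% of the genes tested, and 604 were lower (4.73%), where 638 calls are expected by chance in all. After Benjamini-Hochberg adjustment 1 gene, Cotl1, was called higher (0.00784% of the genes) and 0 lower. The model fitted to the 9 recovery libraries alone, in which the spread of the other groups has no part, called 1,557 genes higher and 1,485 lower at the unadjusted p, and with adjusted p-values 86 higher (0.674%) and 21 lower (0.165%), 0.839% of the genes in all. The 5 mid and 4 early libraries did not overlap for 728 genes (5.71%), 394 of them higher (3.09%) and 334 lower (2.62%) in mid recovery. The count of higher genes was 361 without Recovery week 9 library 1, 426 without week 11 library 3 and 398 without week 13 library 2. The count of lower genes was 364 without week 7 library 2, 325 without week 9 library 1, 314 without week 11 library 3, 376 without week 13 library 1 and 358 without week 13 library 2.

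Cotl1 encodes coactosin-like protein, which binds actin filaments. Its FPKM was 4.83 and 6.72 in the libraries of week 7, 8.55 and 10.6 in those of week 9, 14.5, 12 and 14.3 at week 11, then 17 and 21.6 at week 13. Every mid library lay above every early library, and each week lay above the week before it. Cotl1 rose by 1.07 on the log2 scale (SE 0.16, adjusted p = 0.0287 from limma), and a linear trend over the 4 weeks gave a rise of 1.64 (SE 0.23, adjusted p = 0.00734). The adjusted p of the first comparison was above the threshold without week 7 library 1 (0.113), week 9 library 1 (0.298), week 11 library 1 (0.118), week 11 library 3 (0.113) or week 13 library 2 (0.447), and it ran from 0.00579 to 0.447 over all alternatives. Control week 19 had 7.73 to 11.7 FPKM, and mid recovery was above it by 0.78 (adjusted p = 0.0433 from limma), a comparison in which 0.141% of the genes were called.

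Ccl8, a chemokine that attracts monocytes and lymphocytes, had the largest difference among the named genes. It was at 2.34 and 2.22 FPKM at week 7, 4.80 and 8.91 at week 9, 19.5, 21.4 and 31.4 at week 11, then 29.4 and 79.4 at week 13. The groups did not overlap, and week 13 library 2 stood above the other mid libraries. The log2 difference was 2.95 (SE 0.51), with an adjusted p of 0.053 in the model of all libraries and 0.0232 in that of the 9 libraries, and the trend over weeks 7 to 13 was called after adjustment (rise of 4.25, SE 0.71, adjusted p = 0.0484 from limma). Without week 13 library 2 the difference was 2.60. In the model of all libraries Cotl1 and Ccl8 were the only genes whose trend was called after adjustment (0.0157% of the genes). That model placed 847 genes higher and 794 lower at the unadjusted p (6.64% and 6.22%). The model of the 9 libraries called the trend of 137 genes higher and of 45 lower after adjustment, of 12,759 tested. Control week 19 had 2.82 to 7.56 FPKM of Ccl8 and Recovery week 19 had 10.2 to 53.5, and mid recovery lay above Control week 19 (log2 difference 2.76, adjusted p = 0.0178 from limma).

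Other chemokines were also higher. Of 20 cytokines and chemokines tested, 5 were higher at the unadjusted p (Ccl8, Ccl9, Ccl6, Ccl2 and Ccl5) and 0 lower, where 5.28% of all genes were higher, with a median log2 fold change of 0.37, against 0.00 over all genes tested. Ccl6 had 6.43, 4.45, 7.46 and 6.56 FPKM in the 4 early libraries, in order of week, and 28.8, 15.4, 16.4, 12.3 and 24.8 in the 5 mid libraries. The groups were apart by a log2 difference of 1.51 (SE 0.45, adjusted p = 0.282, and 0.0428 in the model of the 9 libraries, both from limma). Ccl2, the main attractant of blood monocytes, was at 1.60 to 3.23 FPKM in early and at 2.87 to 10.7 in mid recovery, and these ranges overlapped.

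**Figure D1:**
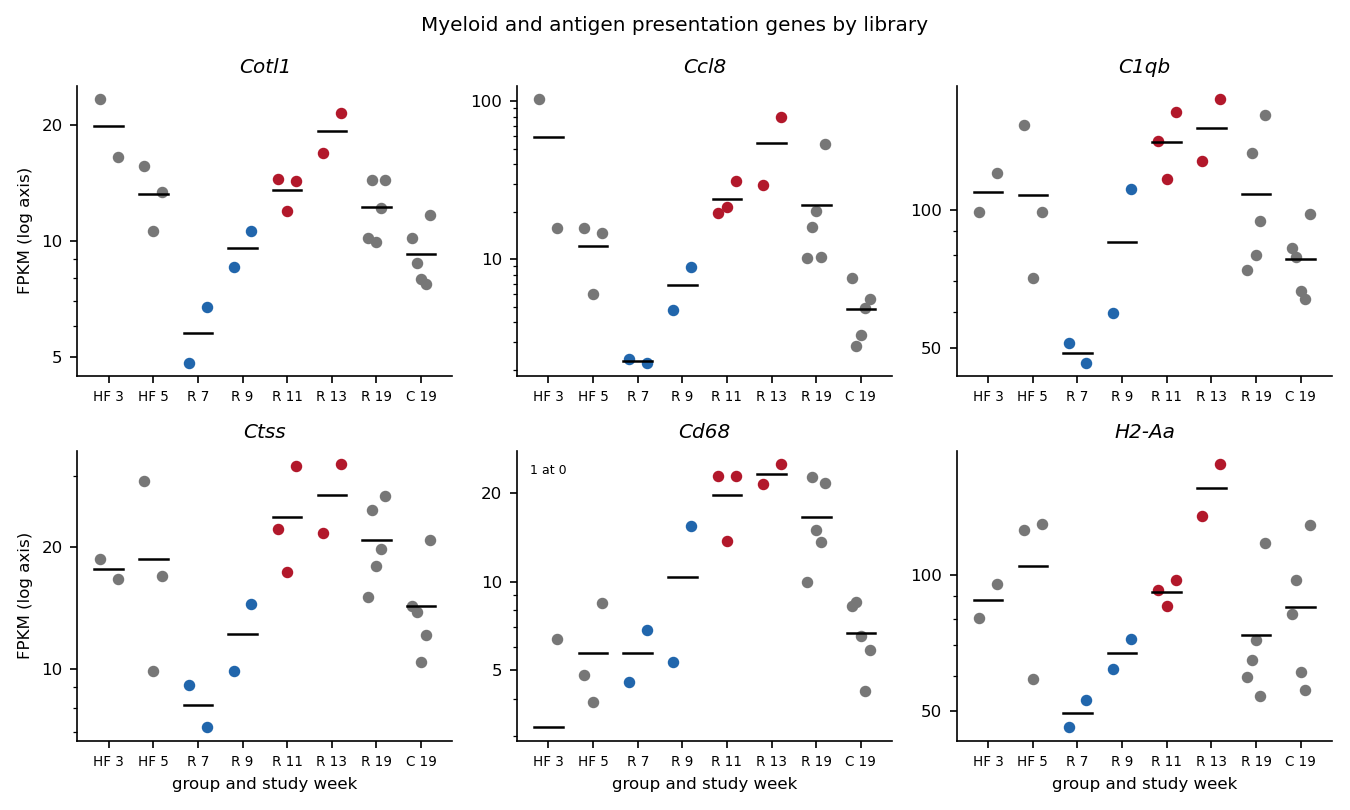
FPKM on a log axis of 6 genes of myeloid cells and antigen presentation in each library, by group and study week (HF, heart failure; R, recovery; C, control). Blue points are early and red points mid recovery, grey points are the other groups and black lines are group means; Cotl1 stands at 4.83 to 10.6 in the blue and 12 to 21.6 in the red points, and 1 library of HF week 3 is listed at 0 for Cd68.

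Of the 14 macrophage markers tested, 10 were higher in mid recovery at the unadjusted p and 0 lower, where 5.28% of all genes were higher. For 10 of the 14 markers all mid libraries lay above all early libraries, as for 3.09% of all genes. The median log2 fold change of the list was 0.83, and 4 markers passed the adjusted threshold in the model of the 9 libraries (C1qa, C1qb, C1qc and Cd14). The 4 markers without a call were Cd163 (0.52), Itgam (0.41), Ccr2 (0.27) and Mertk (-0.19). Ccr2, which marks monocytes from the blood, stayed at 0.270 to 0.610 FPKM in all 9 libraries, near the lower limit of what was tested.

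C1qb, a chain of the first complement component that tissue macrophages make, had 51.4 and 46.6 FPKM at week 7, 59.6 and 111 at week 9, 141, 117 and 163 at week 11, then 128 and 174 at week 13. The week 9 libraries differed from each other, and library 2 came close to the lowest mid library. The log2 difference was 1.18 (SE 0.25, adjusted p = 0.108, and 0.0428 in the model of the 9 libraries, from limma). Control week 19 had 64 to 98.1 and HF week 5 had 71.3 to 153, so that week 7 lay below both and mid recovery above the controls. The partner chain C1qa was at 76.6, 85.9, 87.9 and 148 in early and 204, 158, 208, 202 and 234 in mid recovery. Its ranges did not overlap (log2 difference 1.07, SE 0.22).

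Cd68, a lysosomal protein of macrophages, had 4.58, 6.85, 5.32 and 15.4 FPKM in the early and 22.8, 13.7, 22.8, 21.5 and 25.1 in the mid libraries. Here week 9 library 2 lay above week 11 library 2, the only overlap. Lyz2, the lysozyme of myeloid cells, was at 96.9, 52, 64.6 and 124 in the early and at 185, 144, 224, 165 and 250 in the mid libraries, without overlap (log2 difference 1.26, SE 0.29, adjusted p = 0.144 from limma). Summed over the list, the macrophage markers had 322 and 275 FPKM at week 7, 316 and 555 at week 9, 778, 604 and 853 at week 11, then 702.5 and 936 at week 13. The sum in mid recovery lay above that of Control week 19 (333 to 544) and, in 4 of 5 libraries, within the span of Recovery week 19 (411 to 862). In bulk tissue, a change in the number of macrophages and a change in the RNA of each macrophage cannot be told apart.

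Ms4a7, Mpeg1 (perforin-2), Itgb2 (the integrin beta-2 chain of leukocytes), Cyth4 (a cytohesin of leukocytes), Fcrls (an Fc receptor-like protein of myeloid cells), Tyrobp (the adaptor DAP12) and Gm11428 stood beside Cotl1, Ccl8, Ctss, C1qb and C1qa as the 12 higher genes named by p. Their log2 differences were 0.75 for Cyth4, 0.88 for Fcrls, 0.94 for Itgb2, 1.30 for Tyrobp, 1.33 for Mpeg1, 1.35 for Ms4a7 and 2.08 for Gm11428. In the model of the 9 libraries 10 of the 12 passed the adjusted threshold, where 0.674% of all genes were higher. The choice of the 12 for no overlap between these same libraries and for a small p largely fixed that count. Itgb2 had 1.67, 1.02, 1.41 and 1.55 FPKM in early and 3.08, 2.64, 2.58, 3.14 and 4.01 in mid recovery, without overlap. Tyrobp was at 24.5, 30.1, 36.3 and 70.3 and at 75.7, 74.7, 108, 89 and 113, so that its early maximum, again week 9 library 2, nearly met the mid minimum. The log2 difference of Tyrobp was 1.54 without that library and 1.07 without week 9 library 1, the highest and lowest on leaving out each library.

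All 7 MHC class II genes tested were higher at the unadjusted p, where 5.28% of all genes were, with log2 fold changes from 0.74 to 1.28 and a median of 0.95, and 4 of them (H2-Aa, H2-Eb1, Cd74 and Ctss) passed after adjustment in the model of the 9 libraries, where 0.674% of all genes were higher. H2-Aa, the alpha chain of I-A, had 46.1 and 53 FPKM at week 7, 62 and 72.4 at week 9, 92.7, 85.6 and 97.4 at week 11, then 135 and 176 at week 13. The weeks did not overlap with one another. The log2 difference was 1.04 (SE 0.26, adjusted p = 0.201, and 0.023 in the model of the 9 libraries, from limma). Cd74, the invariant chain, was at 112, 130, 152 and 202 in the early and 238, 207, 229, 304 and 393 in the mid libraries. Ctss, the cathepsin that cuts the invariant chain, was at 9.15, 7.17, 9.86 and 14.5 and at 22.2, 17.4, 31.7, 21.7 and 32.1. Both were apart without overlap, by log2 differences of 0.94 and 1.28. The list continued upward after week 11: its median step was 0.54 from week 7 to 9, 0.35 from week 9 to 11 and 0.69 from week 11 to 13, where that of the macrophage list was 0.34, 0.69 and 0.10. Early recovery lay below Control week 19 in its median (-0.48) and mid recovery above it (0.55), and both share these controls.

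Complement genes gave 10 higher and 0 lower of 16, where 5.28% of all genes were higher, with a median of 0.57. Besides the C1q chains these were the proteases C1ra (0.59) and C1s (0.47), the inhibitors Serping1 (0.57) and Cd55 (0.57), factor B (Cfb, 0.58) and the receptors C3ar1 (0.86) and C5ar1 (1.02). Of 28 interferon response genes 11 were higher (39.3%) and 0 lower, with a median of 0.34. B2m, the light chain of MHC class I, had the largest difference of that list, with 238, 321, 348 and 423 FPKM in early and 557, 519, 595, 576 and 744 in mid recovery (log2 difference 0.89, SE 0.27, adjusted p = 0.0377 in the limma model of the 9 libraries and 0.294 in that of all). The interferon-induced GTPase Igtp and the immunoproteasome genes Psmb8 and Psmb9 followed with 0.62, 0.61 and 0.54, whereas Ifit1 (0.23), Ifit2 (0.14) and Mx2 (-0.21) were not called.

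Markers of other leukocytes were low. Of the lymphocyte list 4 of 12 genes in the table passed the filter, and their summed FPKM was 2.52 to 4.76 in early and 4.24 to 7.89 in mid recovery, with Cd2 called higher (0.79). The neutrophil list summed to 2.71 to 7.09 and 3.73 to 20.4, with S100a8 called higher (1.43), 1 of 4 genes tested, where 5.28% of all genes were higher. The transcripts of this list were short, with a median of 556 bases against 3051 over all genes tested. The mast cell list had 0 calls. Lyve1, found on lymphatic vessels and on resident macrophages, was at 4.51, 3.71, 5.36 and 3.96 in the early and 14, 9.09, 10, 6.17 and 8.80 in the mid libraries, without overlap (log2 difference 0.97, adjusted p = 0.0443 in the limma model of the 9 libraries and 0.379 in that of all). Of the 6 lymphatic endothelial markers tested 2 were higher (33.3%, where 5.28% of all genes were) and 0 lower, with a median of 0.47, and 4 were higher in the model of the 9 libraries (66.7%, against 12.2% of all genes). In the model of all libraries Reln was called besides Lyve1, at 1.78 to 2.09 and 2.40 to 4.14 FPKM (0.45). Mmrn1 (0.57), Pdpn (0.50), Flt4 (0.18) and Prox1 (-0.09) were not called in that model.

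Fibroblast and matrix genes were higher as well. Of 12 fibroblast markers 7 were higher and 0 lower, with a median of 0.44, and of 32 collagen and matrix genes 12 were higher and 0 lower, with a median of 0.38, where 5.28% of all genes were higher. All 32 matrix genes had a fold change above 0, against 49.8% of all genes tested. Dpt, dermatopontin, was at 63.3, 65.9, 95.6 and 117 FPKM in early and 125, 160.0, 185, 122 and 146 in mid recovery, without overlap (0.79). The summed fibroblast markers spanned 1127 to 1692 FPKM in early and 1488 to 2390 in mid recovery. Endothelial markers had 0 calls among 14 and a median of 0.03, and smooth muscle and pericyte markers had 1 lower gene among 12 (Cspg4, -0.34) and a median of -0.16, which was -0.25 without week 9 library 1 and -0.089 without week 11 library 3.

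Col3a1, the fibrillar collagen of type III, had 22.2 and 16.8 FPKM at week 7, 21.7 and 27.7 at week 9, 31.4, 36.2 and 42.5 at week 11, then 34.8 and 40.1 at week 13. The mid libraries lay above all early libraries (log2 difference 0.75, SE 0.17, adjusted p = 0.144, and 0.0443 in the model of the 9 libraries, from limma). HF week 5 had 31 to 53 and Control week 19 had 24.5 to 29.4, so that mid recovery was above the controls and within the range of HF. Fbn1, the fibrillin of microfibrils, was at 2.32, 2.36, 2.42 and 2.93 in the early and at 5.32, 4.06, 5.73, 4.06 and 4.21 in the mid libraries (log2 difference 0.75, SE 0.16, adjusted p = 0.0396 in the limma model of the 9 libraries and 0.11 in that of all). Its early level was under the HF week 5 level of 5.68 to 7.79 in every library, with a fall of early recovery from HF that passed in the model of all libraries (-1.27, adjusted p = 0.000255 from limma, where 18.5% of all genes were called).

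Some matrix genes, Eln, Mmp14 and Mfap5 among them, were highest at week 11 and lower at week 13. The median step of the list was 0.35 from week 7 to 9, 0.33 from week 9 to 11 and -0.40 from week 11 to 13. Eln, elastin, had 8.45 and 9.25 FPKM at week 7, 10.8 and 10.3 at week 9, 27.3, 27.0 and 23.5 at week 11, then 6.65 and 7.20 at week 13. Week 11 stood apart from all other weeks, and week 13 lay below week 7. The steps of 1.25 and -1.83 passed after adjustment in the model of the 9 libraries (adjusted p = 0.0159 and 0.000739) and had adjusted p-values of 1 and 0.277 in that of all libraries (limma). The only other gene whose step passed there was Cdkn1a, the cell cycle inhibitor p21, with 14 and 10.1 FPKM, 35.6 and 27.9, 65.5, 55.3 and 59.5, and 20.5 and 19.3 at weeks 7, 9, 11 and 13 (step from week 11 to 13 of -1.57, adjusted p = 0.0415 from limma). Eln and Cdkn1a are named because the count of such genes was that small, after their values were seen.

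Mmp14, a membrane-bound metalloproteinase, was at 3.16 and 3.83 FPKM at week 7, 6.01 and 8.45 at week 9, 11.8, 11 and 12.1 at week 11, then 7.48 and 8.18 at week 13. Week 13 thus lay within the range of week 9, and the log2 difference of mid to early recovery was 0.87 (SE 0.19, adjusted p = 0.0336 in the limma model of the 9 libraries and 0.11 in that of all). Mfap5, a microfibril protein of fibroblasts, was also highest at week 11, with 15 and 17.6, 31.7 and 36.4, 43.5, 60.9 and 73.8, and 29.4 and 31.6 at weeks 7, 9, 11 and 13. Its week 13 lay just below week 9 and above week 7. Timp1, an inhibitor of metalloproteinases, was at 3 and 2.41 at week 7 and at 7 to 23.9 in the 7 later libraries, so that its difference lay between week 7 and the rest. Over the whole model 241 genes were higher and 183 lower from week 7 to 9 at the unadjusted p of limma (1.89% and 1.43%, together 3.32%). The step from week 9 to 11 gave 200 higher and 95 lower (1.57% and 0.745%, together 2.31%), and that from week 11 to 13 gave 159 higher and 333 lower (1.25% and 2.61%, together 3.86%). Each step thus had fewer calls than the 638 that chance gives at this p, and 0 after adjustment. The model of the 9 libraries called more, 722 higher and 646 lower, 595 and 434, and 581 and 788 for the 3 steps, with 0, 1 and 2 genes after adjustment, those named above. The order of changes over the weeks is given as a description.

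**Figure D2:**
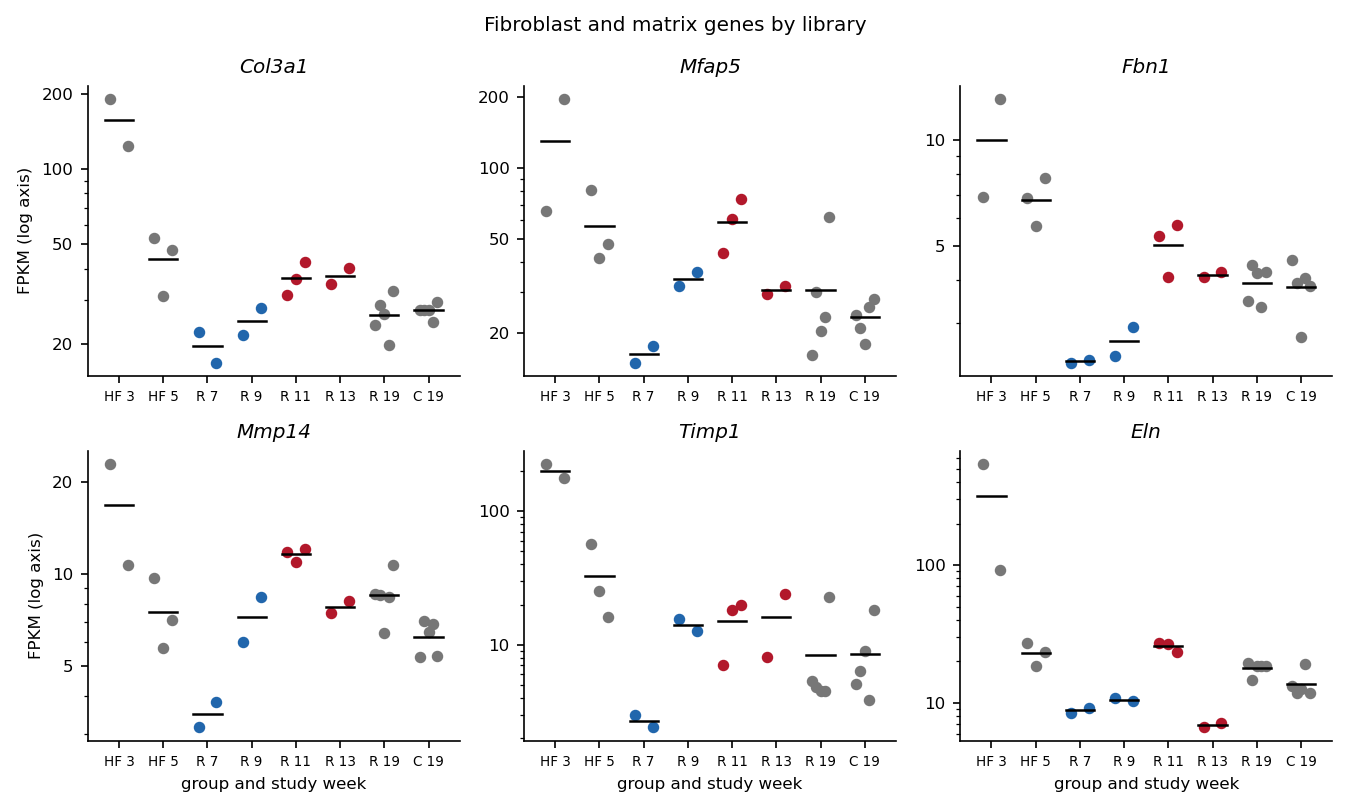
FPKM on a log axis of 6 fibroblast and matrix genes in each library, by group and study week, drawn as in the plot of myeloid genes. The mid libraries (red) of Col3a1 and Fbn1 lie above the early ones (blue), and Eln stands at 23.5 to 27.3 at week 11 and at 6.65 and 7.20 at week 13.

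Genes of TGF-beta signalling and of the endothelial-to-mesenchymal transition gave 2 higher and 0 lower of 22 (9.09%, against 5.28% of all genes on the higher side), with a median of 0.18. These were Twist2, a transcription factor of mesenchymal cells, with 1.43, 1.01, 1.61 and 1.39 FPKM in the early and 2.76, 2.20, 3.21, 2.37 and 1.88 in the mid libraries (log2 difference 0.65, SE 0.18, adjusted p = 0.245 from limma), and the ligand Tgfb1, with 10.7 to 15.4 and 14.8 to 17.2 (0.32, SE 0.10, adjusted p = 0.301). Twist2 did not overlap between the groups and Tgfb1 did. Snai1 (0.24), Snai2 (0.34), Twist1 (0.32) and Zeb1 (0.05) were not called.

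Genes of the circadian clock held the most lower calls of the 43 lists examined. Of 18 tested, 7 were lower at the unadjusted p (Per3, Per2, Cry1, Cry2, Tef, Nr1d2 and Bhlhe41), where 4.73% of all genes were lower, and 1 was higher (Arntl). The median log2 fold change was -0.41. Of the 12 lower genes named by p, 4 were clock genes (Per3, Tef, Cry2 and Per2).

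The promoters of Per3, Tef and Cry1 are shown as lower genes of the loop whose window holds a clock motif, chosen for that. A pair of short sequences is known in such promoters, the E-box CACGTG, bound by Clock and Arntl, and the D-box TTATGTAA (TTACATAA on the other strand), bound by Dbp, Tef and Hlf. Each line runs 5′ to 3′ on the gene's strand from 250 bases before to 50 bases after the start of the transcript in RefSeq (GRCm38.p6, another build than that of the expression values), with the motif in capitals. The windows are chr4:151044616-151044915 (minus strand) for Per3, chr15:81802423-81802722 and chr15:81811164-81811463 (plus strand) for the 2 starts of Tef, and chr10:85185005-85185304 (minus strand) for Cry1. The D-box of Per3 stands 205 and 158 bases before the start, and the E-box 127 and 138 bases before the starts of Tef and 60 bases before that of Cry1.
Per3: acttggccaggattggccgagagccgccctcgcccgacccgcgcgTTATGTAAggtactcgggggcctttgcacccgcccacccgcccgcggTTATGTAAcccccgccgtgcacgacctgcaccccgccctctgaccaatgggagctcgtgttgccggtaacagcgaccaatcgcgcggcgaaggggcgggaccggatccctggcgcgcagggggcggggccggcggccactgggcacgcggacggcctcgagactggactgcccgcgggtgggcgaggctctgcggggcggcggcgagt
Tef, start 1: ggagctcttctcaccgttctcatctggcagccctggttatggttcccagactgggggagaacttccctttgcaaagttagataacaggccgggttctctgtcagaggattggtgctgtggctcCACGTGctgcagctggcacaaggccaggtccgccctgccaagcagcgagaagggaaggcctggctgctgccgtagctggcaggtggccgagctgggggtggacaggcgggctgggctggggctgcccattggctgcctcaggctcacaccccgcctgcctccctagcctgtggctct
Tef, start 2: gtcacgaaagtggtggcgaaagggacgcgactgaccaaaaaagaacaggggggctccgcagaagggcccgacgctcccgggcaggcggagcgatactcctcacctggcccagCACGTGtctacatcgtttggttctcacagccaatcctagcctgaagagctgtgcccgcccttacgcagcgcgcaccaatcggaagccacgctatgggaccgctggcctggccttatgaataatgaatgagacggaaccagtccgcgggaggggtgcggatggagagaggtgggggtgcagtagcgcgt
Cry1: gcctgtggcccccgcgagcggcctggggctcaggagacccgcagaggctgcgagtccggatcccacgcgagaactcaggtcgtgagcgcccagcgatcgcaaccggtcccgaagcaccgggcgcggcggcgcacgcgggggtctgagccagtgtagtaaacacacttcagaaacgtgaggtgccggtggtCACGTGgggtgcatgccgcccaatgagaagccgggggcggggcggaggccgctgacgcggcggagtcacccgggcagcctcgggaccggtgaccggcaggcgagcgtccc
Of the 18 clock genes, 15 had a window in the table, 20 windows in all. The E-box was found in 6 of the 20 windows (genes Bhlhe41, Ciart, which is Gm129 in the expression table, Cry1, Per1 and Tef) and in 7.15% of the 32,851 windows of all genes, read on both strands. The D-box was found in 1 of the 20, that of Per3, and in 0.938% of all windows. Of the 7 lower genes, Bhlhe41 also had an E-box, and the windows of Cry2 and Nr1d2 held neither motif. A match describes the letters of the window, and binding was not measured.

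Per3, a period gene, had 10.9 and 8.04 FPKM at week 7, 5.31 and 4.48 at week 9, 1.64, 3.37 and 1.38 at week 11, then 2.97 and 3.07 at week 13. All mid libraries lay below all early libraries, with a log2 difference of -1.30 (SE 0.30, adjusted p = 0.15, and 0.0428 in the model of the 9 libraries, from limma). Per2 was at 6.12, 7.52, 4.13 and 3.27 in the early and at 2.54, 3.13, 1.00, 1.91 and 2.01 in the mid libraries (-1.14, SE 0.31, adjusted p = 0.26). Tef, a transcription factor of the D-box, was at 60.7, 63.9, 42.1 and 40.1 and at 31.6, 34.7, 21.6, 33.7 and 33.9 (-0.69, SE 0.17, adjusted p = 0.198), and Cry2, a repressor of Clock and Arntl, at 10.7, 11.8, 9.75 and 9.49 and at 7.78, 8.03, 5.22, 7.33 and 7.42 (-0.52, SE 0.13, adjusted p = 0.206). Each of these genes was without overlap, and week 7 was above week 9. Week 11 library 3 was the lowest library for all 4 genes.

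Other clock genes did not keep one order over the weeks. Arntl, the activator of the loop, had 0.297 and 0.263 FPKM at week 7, 0.453 and 0.418 at week 9, 1.76, 2 and 3.24 at week 11, then 0.529 and 0.652 at week 13. It was higher in mid recovery without overlap (1.02, SE 0.28, adjusted p = 0.26, and 0.0396 in the model of the 9 libraries, from limma), most of it at week 11. Dbp, the output gene, was at 97.4 and 138, 82.3 and 124, 40.2, 50 and 32.4, and 111 and 96.6 in the same order, so that week 11 was low and week 13 within the early range (log2 difference -0.74, SE 0.37, adjusted p = 0.515). The step of Dbp from week 11 to 13 was 1.35, and that of Arntl -1.35. The labels and the methods give no time of day for the collection of the hearts, and its part in these values was not tested. Libraries of one group also differed in Control week 19, where Dbp was at 77.1, 82.2, 78.9, 39.5 and 34.3 FPKM.

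**Figure D3:**
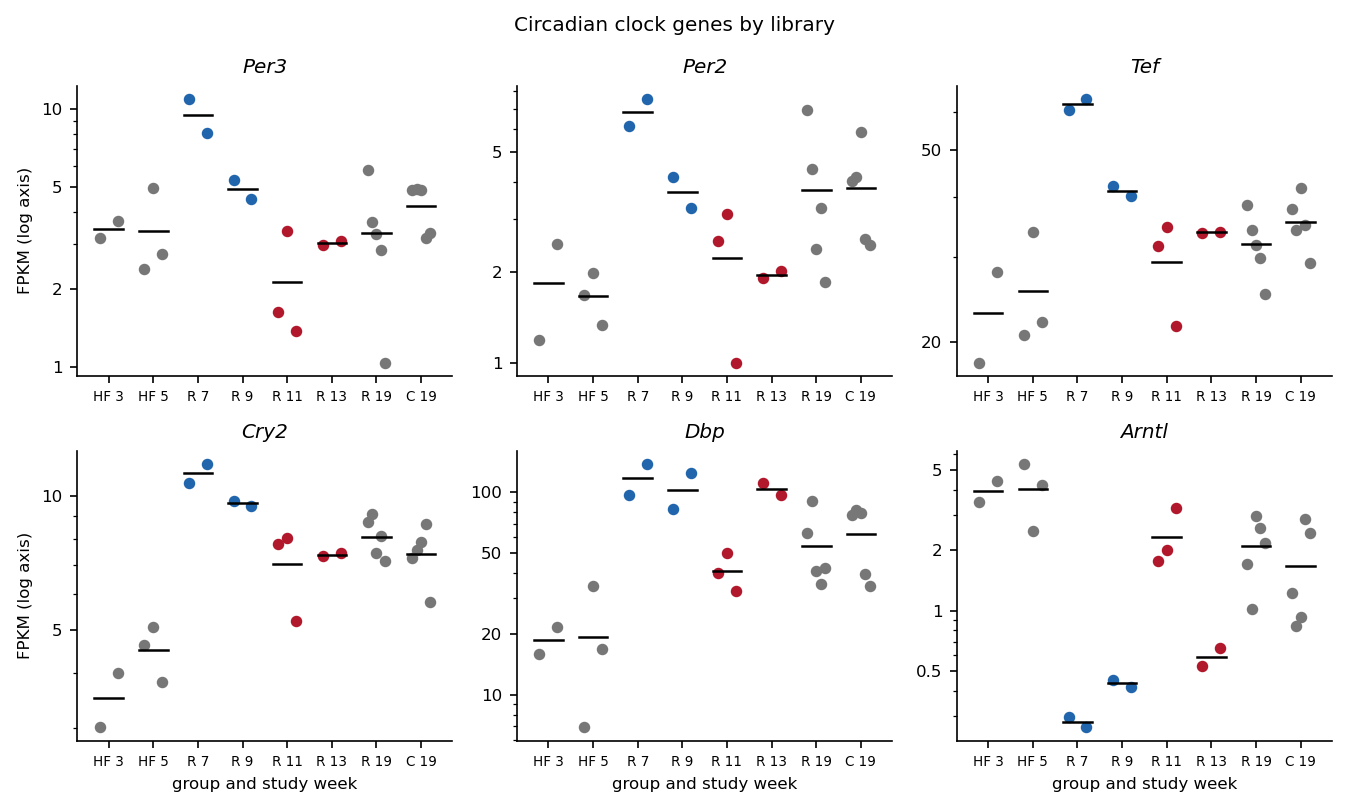
FPKM on a log axis of 6 circadian clock genes in each library, by group and study week, drawn as in the plot of myeloid genes. Per3, Per2, Tef and Cry2 are lower in every mid library (red) than in every early one (blue), and Dbp and Arntl differ between weeks 11 and 13.

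The other 8 lower genes named by p had log2 differences from -0.67 to -0.36. Paqr7, a membrane receptor for progesterone, had 11.6, 11.5, 10.3 and 11.3 FPKM in the early and 6.26, 5.60, 6.41, 8.88 and 8.18 in the mid libraries (log2 difference -0.60, SE 0.13, adjusted p = 0.132, and 0.0336 in the model of the 9 libraries, from limma). Its early values were nearly level and every mid value was below them. The differences of Cys1 (a protein of cilia), Cul9 (a scaffold of ubiquitin ligases), Ankrd16, Slc46a3 (a lysosomal transporter), Ttpal, Phkg2 (a catalytic subunit of phosphorylase kinase) and Smpd4 (a sphingomyelinase) were -0.54, -0.51, -0.58, -0.67, -0.36, -0.44 and -0.41. Of the 12 lower genes, Paqr7 and Per3 passed after adjustment in the model of the 9 libraries, where 0.165% of all genes were lower. These 12 were also chosen for no overlap between the same libraries.

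Of 16 sarcomere genes, Myh6 among them, 0 were higher and 1 was lower in the model of all libraries (6.25%, near the 4.73% of all genes). The lower gene was Mybpc3, with 902 to 986 FPKM in early and 664 to 836 in mid recovery (log2 difference -0.39, SE 0.18, adjusted p = 0.497 from limma). Myh6 had 106000 and 143700 FPKM at week 7, 155600 and 175700 at week 9, 181000, 205900 and 200100 at week 11, then 316200 and 241700 at week 13. Each week lay above the one before. Because Myh6 is listed at 0 in all libraries of both week 19 groups and of HF week 5, it was tested within the 9 libraries, where the log2 difference was 0.70 (adjusted p = 0.35 from limma) and a two-sided exact permutation test gave p = 0.0159, the smallest that 5 against 4 libraries allow. Other cardiomyocyte genes listed at 0 in a whole group, Actc1 (0.07), Mb (0.11), Myl2 (0.41) and Nppa (-0.55), had exact p-values of 0.46, 0.365, 0.0635 and 0.524.

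The 17 ion channel genes had a median log2 fold change of -0.22 with 0 higher and 1 lower at the unadjusted p of limma (5.88%, near the 4.73% of all genes). In the model of the 9 libraries 8 of them were lower, where 11.6% of all genes were lower, and 0 after adjustment. With length and GC corrected 1 was lower in the model of all libraries, and in that of the 9 libraries 5 were lower, where 10.7% of all genes were, and 1 after adjustment. Among 14 calcium handling genes the calcium channel genes Cacna1c (-0.67) and Cacnb2 (-0.68), which encode the pore and a subunit of the L-type channel, were lower at the unadjusted p of limma. Lists of fatty acid oxidation (27 genes), glycolysis (20), the TCA cycle (18), the hypertrophy and fetal program (15), the cell cycle (18), cardiac transcription factors (22) and the immediate early response (23) had 0 calls in either direction. After quantile normalization 4 of the glycolysis genes (20%) and 2 of the TCA cycle genes (11.1%) were lower, where 5.25% of all genes were. In the hypertrophy list Myh7, the beta myosin heavy chain, ranged from 33.4 to 100 FPKM in early and from 22 to 220.0 in mid recovery, with the highest value in week 11 library 3. Nppb, the natriuretic peptide, was at 260.0 and 167 at week 7, 797 and 1180 at week 9, 668, 827 and 1320 at week 11, then 551 and 574 at week 13. It was lowest at week 7 and its groups overlapped (log2 difference 0.66).

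Calls on the higher side lay mostly in genes with short transcripts. Cytosolic ribosomal proteins gave 28 higher and 0 lower of 79, with a median of 0.45, and the proteasome 7 higher and 0 lower of 37, with a median of 0.15. The respiratory chain gave 5 higher and 0 lower of 81, a share of 6.17% near the 5.28% of all genes, with a median of 0.29 that was 0.17 without week 7 library 1. Rps29 and Rps28 differed by 0.86 and 0.75, and Cox7c and Atp5k, small subunits of the respiratory chain, by 0.52 each. Rps29 was at 2130 and 2190 FPKM at week 7, 5080 and 5910 at week 9, and 4540 to 7070 in mid recovery, so that week 7 stood apart. In a list of 10 nuclear and histone RNAs that vary with RNA handling 2 were lower and 2 higher (Gas5, 0.56, and Hist1h2bc, 0.42), 20% each where 4.73% and 5.28% of all genes were, with a median of 0.11 that was 0.034 without week 9 library 1 and 0.18 without week 9 library 2. After quantile normalization 0 were higher and 2 lower. The lower ones were the long nuclear RNAs Neat1 and Malat1. Neat1 had 242, 184, 263 and 194 FPKM in early and 105, 157, 67.7, 54.1 and 98.6 in mid recovery, without overlap (-1.32, SE 0.50, adjusted p = 0.412 from limma), and Malat1 35.9 to 61.5 and 14.5 to 39.7 (-1.16, SE 0.49, adjusted p = 0.442). Across the 11,945 genes with a length, the fold change had a Spearman rho of -0.372 with transcript length and -0.169 with GC content, where genes are not independent replicates. With the genes in 5 bins of length, 266 were higher and 22 lower in the bin of the shortest transcripts (up to 1703 bases), and in that of the longest (4995 bases and more) 46 were higher and 199 lower.

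The size and sign of this trend differed between libraries. The rho between a library's deviation from the mean and transcript length was 0.359 and 0.083 at week 7, 0.046 and -0.309 at week 9, -0.247, 0.176 and -0.368 at week 11, then -0.379 in both libraries of week 13, and over Recovery week 19 it ran from -0.427 to 0.484. Week 9 library 2 and 4 of the 5 mid libraries were below 0, and week 11 library 2 and the other 3 early libraries above 0. When the trend on length and GC was removed from each library, an alternative chosen after seeing the data, rho over the genes was -0.063 and the lists parted. The medians were 0.81 for macrophage, 0.87 for MHC class II, 0.56 for complement, 0.41 for fibroblast and 0.45 for matrix genes, with 10, 7, 11, 7 and 14 members higher, where 4.86% of all genes were higher and 3.61% lower on the corrected values. For the cytosolic ribosome the median was 0.24 with 13 higher, for the respiratory chain 0.06 with 1, and for the proteasome 0.02 with 1, the last 2 lists below that share. The clock list had a median of -0.35 with 6 lower and 2 higher. In the model of the 9 libraries 201 genes were higher and 78 lower after adjustment on the corrected values, and 96 of the 107 genes called before were called in the same direction.

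**Figure D4:**
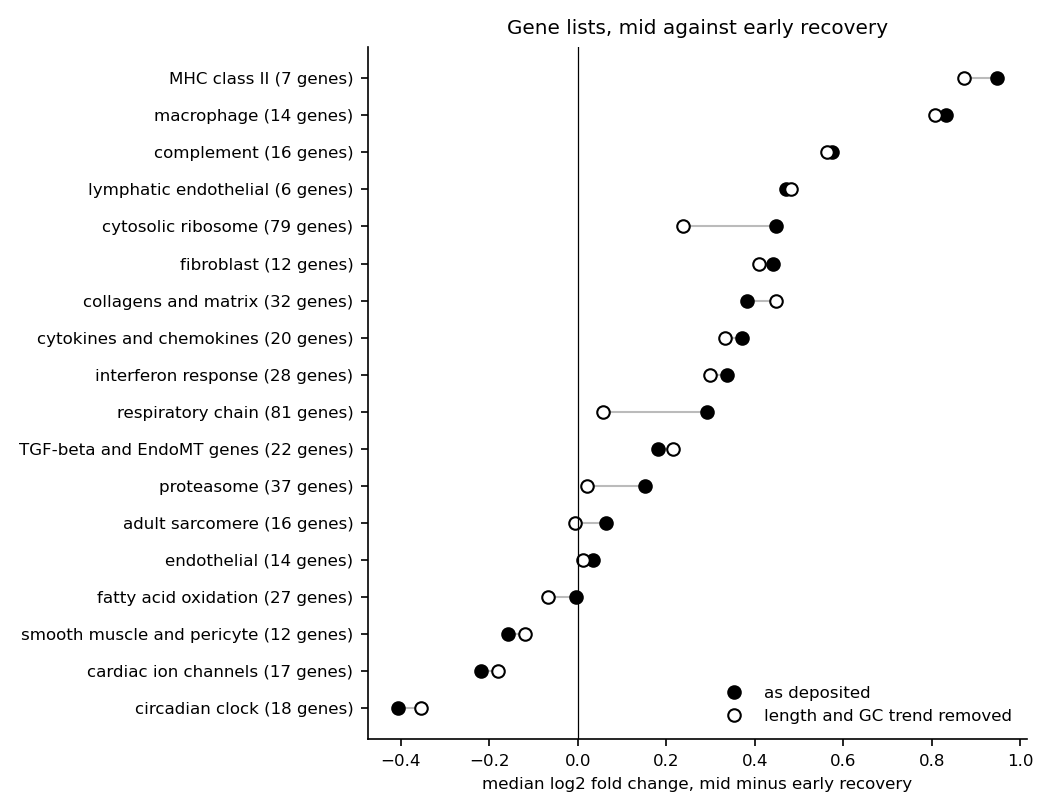
Median log2 fold change, mid minus early recovery, of 18 gene lists with the number of genes tested in each. Filled points are from the values as deposited and open points from values with each library's trend on transcript length and GC content removed; macrophage (0.83 and 0.81) and MHC class II (0.95 and 0.87) stay in place, and the respiratory chain moves from 0.29 to 0.06.

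**Figure D5:**
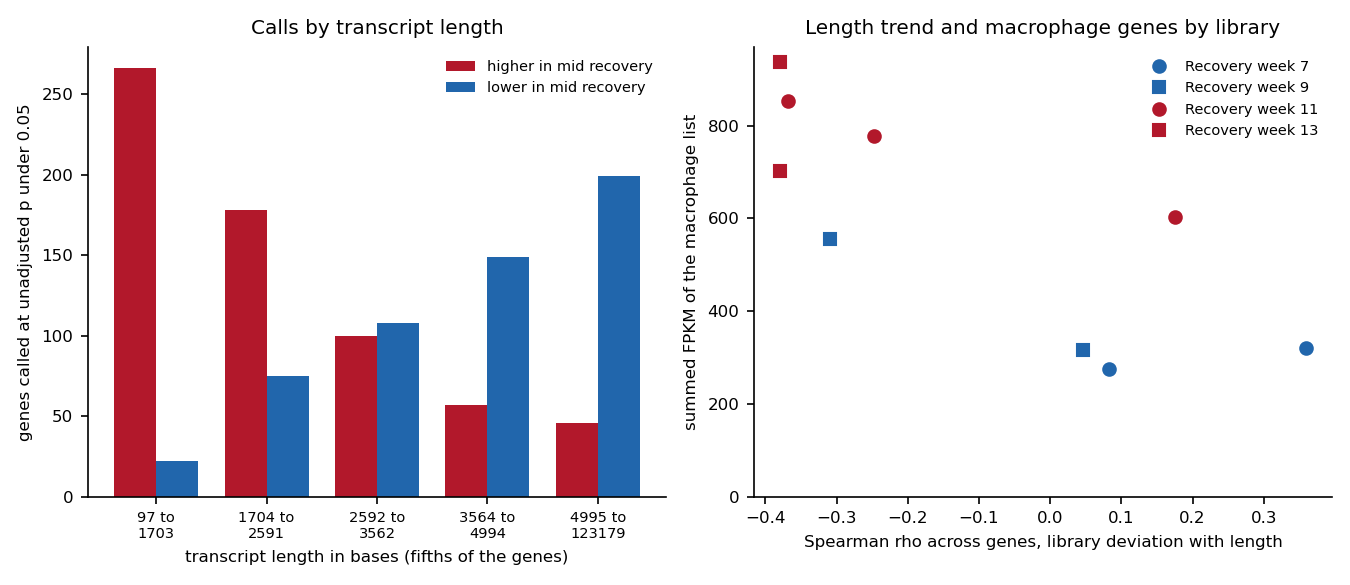
Left, number of genes called higher (red) and lower (blue) in mid recovery in each of 5 bins of transcript length, 266 and 22 in the shortest and 46 and 199 in the longest. Right, summed FPKM of the macrophage list against the library's Spearman rho with transcript length for the 9 recovery libraries, with sums of 275 to 555 in the early (blue) and 604 to 936 in the mid libraries (red).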

How the data were processed

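RNA of mouse hearts was sequenced after poly(A) selection, and the authors aligned paired-end reads to mm9 with TopHat2 and computed the FPKM with Cuffdiff for each library; the annotation and the scaling between libraries are not given in the sources used here. The deposited FPKM values of 24 libraries were used, and the 5 columns of the controls of week 5 were left out because that group has more columns than labelled samples. The filter asked for a mean of 0.5 FPKM and kept 12,759 of 29,955 genes. Their log2(FPKM + 0.5) entered a model of limma 3.58.1 (R 4.3.3) that held 1 mean per group, 8 in all, a variance trend and 16 residual degrees of freedom. Mid minus early recovery was the mean of weeks 11 and 13 minus the mean of weeks 7 and 9. Calls were made at the study's threshold of an unadjusted p under 0.05, with Benjamini-Hochberg adjusted values over all genes beside them. A model of the 9 recovery libraries had 5 residual degrees of freedom. The gene lists, members and tests were chosen with earlier results of these data known. The genes named were, in each direction, 12 without overlap between the groups, taken by adjusted and then unadjusted p if their mean over the 9 libraries reached 2 FPKM, and up to 2 of each list in each direction. Genes listed at 0 in a whole group (8) stayed in the model of all libraries and in the counts of genes and list members called. Those values of 0 were thus part of that fit. The tests given for single genes of this kind come from the 9 libraries alone.

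The absolute depth is unknown, since the values are not counts. On simulated data for 12,759 genes, the model of 24 libraries called 77% of 100 genes changed by 1 (log2) after adjustment and 97% of 100 changed by 2, and that of 9 libraries called 67% and 96%. The simulated spread was normal, independent between genes and equal in all groups, without a trend on length, so that these shares may not hold for the measured values. There the model of 24 libraries called 1 gene after adjustment and that of 9 libraries 107. Alternatives were other filters, pseudocounts and normalizations, the removal of a loess trend (span 0.3) on transcript length and GC content, other sets of libraries, and leaving out each library in turn. Promoter windows came from RefSeq (GRCm38.p6). Figures were drawn with matplotlib 3.10.9. Some single genes of the fixed lists are not reported here.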

Additional observations from a re-analysis of the deposited data

Results flagged for a closer look

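In 80 groups of 4 or 5 libraries tested, 7 held a library far from the others of its group, where chance flags about 1 in 20. Recovery week 9 library 2 stood apart from the other early libraries in 4 of them. It had 2.70 FPKM of Mpeg1 (the others 1.27 to 1.40), 42.4 of Gm11428 (13.3 to 16.7) and 148 of C1qa (76.6 to 87.9). Its summed macrophage markers were at 555 FPKM (275 to 322). In the mid libraries, week 13 library 2 had 79.4 FPKM of Ccl8 (the others 19.5 to 31.4). Week 11 library 3 had 21.6 FPKM of Tef (31.6 to 34.7) and 5.22 of Cry2 (7.33 to 8.03), the lowest of its group.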

How the results depend on the processing

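The 24 genes named by p kept their direction in all 480 values, which their choice for no overlap between the groups largely fixed. Of 516 list medians 59, in 17 lists, had the other sign. These lists had a main median of at most 0.203 in size, except the respiratory chain. The model of the 9 libraries called 1557 higher and 1485 lower for mid against early recovery, 722 and 646 for week 9 against 7, 595 and 434 for week 11 against 9, 581 and 788 for week 13 against 11, and 1812 and 1708 for the trend. Without HF week 3 these were 1046 and 940, 432 and 348, 331 and 202, 283 and 514, and 1287 for the higher side of the trend. With the length and GC trend removed as well as only 9 libraries they were 1333 and 1284, 695 and 699, 653 and 511, 740 and 777, and 1456 and 1382. A fit of 5 against 4 libraries as 2 groups gave 1302 and 1233, and the adjusted threshold 1 and 0. Without a filter, week 9 against 7 gave 515 and 449, week 11 against 9 gave 440 lower and week 13 against 11 gave 554 higher. The ribosome median was 0.15 after quantile normalization and 0.24 after the length and GC correction, and that of the respiratory chain -0.011 and 0.057. The cause of these shifts was not tested, beyond the trend that the correction removed.

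Leaving out each library gave 361 to 804 higher and 314 to 764 lower for mid against early recovery, 415 to 923 and 400 to 883 for the trend, 102 to 364 and 84 to 181 for week 9 against 7, 99 to 192 and 44 to 145 for week 11 against 9, and 85 to 178 and 159 to 403 for week 13 against 11. The share of FPKM of the 10 highest genes differed by 2.95 to 4.58 percentage points (29.6 ± 1.43% in early, n = 4, and 33.5 ± 2.67% in mid recovery, n = 5, SD, exact permutation p = 0.0317), with exact p-values from 0.0286 to 0.0714. Myh6, 1 of these genes, alone took 15.5 ± 1.08% in early and 19.9 ± 2.83% in mid recovery (SD). No paired analysis was possible because the numbers of the columns are not tied to labelled animals.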

Other observations

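A list of 15 acute phase and metallothionein genes also held Cdkn1a, which is neither. Of these 15, 4 were higher and 0 lower in mid recovery at the unadjusted p of limma, where 5.28% of all genes were higher. The list had a median of 0.48 that was 0.30 without week 7 library 2. Lcn2, the iron-binding lipocalin of neutrophils and injured tissue, had 2.84, 4, 8.15 and 5.60 FPKM in the early and 11.5, 11.4, 9.63, 8.12 and 8.95 in the mid libraries, where week 13 library 1 lay just under the highest early value (0.93, adjusted p = 0.0389 in the limma model of the 9 libraries and 0.405 in that of all). Saa3, a serum amyloid A, was listed at 0 in 2 early libraries and was at 0.816 to 6.30 in mid recovery. Of 25 genes in a list of antioxidant and NADPH oxidase genes 4 were higher (16%, where 5.28% of all genes were). Among them were Cyba and Cybb, which are chains of the phagocyte NADPH oxidase and not antioxidant enzymes. They were at 89.3 to 134 against 129 to 175 FPKM (0.58) and at 0.574 to 1.07 against 1.02 to 2.29 (0.70). Of 16 genes of the integrated stress response 1 was higher, a share of 6.25% near that of all genes. This gene, Nupr1, was at 9.66 to 21.5 and 19.7 to 45.3 FPKM (0.84).

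Among 16 genes of ubiquitin ligases and atrophy, the lysosomal protein Lamp2 (0.27) and the mitophagy receptor Bnip3 (0.29) were higher and the autophagy kinase Ulk1 (-0.40) was lower (12.5% and 6.25%, where 5.28% and 4.73% of all genes were), with a median of 0.01 over the list. Ulk1 had 15.5, 17.1, 13.7 and 14.1 FPKM in the early and 11.2, 13.2, 10, 12.4 and 9.96 in the mid libraries, without overlap. Chaperone genes had 1 call on the higher side of 21 (Hspe1, 0.41; 4.76%) and the mitochondrial ribosome 2 of 76 (Mrpl48, 0.40, and Mrps18c, 0.37; 2.63%), shares below the 5.28% of all genes. The lists of adipocyte, brown adipocyte, skeletal muscle, nerve, epicardial, red blood cell and atrial markers and of the renin-angiotensin and nitric oxide genes had 0 calls at the unadjusted p of limma. Nppa, the atrial natriuretic peptide, was at 370.2 to 2426 FPKM in early and 353.7 to 1421 in mid recovery.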
